A study of Homo sapiens with 6 samples.

Results

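The ERK feedback and output genes are 10 human genes whose transcription follows the activity of the kinase ERK: the phosphatases DUSP4 and DUSP6, the Sprouty genes SPRY1, SPRY2 and SPRY4, the SPRED genes SPRED1 and SPRED2, and the ETS transcription factors ETV1, ETV4 and ETV5. They were picked by name from 48183 gene names in the deposited count table, for their known place in the pathway, by a rule that uses no measured value, although earlier results of these data were known when the list was made. All 10 have a single Ensembl identifier and all 10 passed the filter on low counts. Bulk RNA sequencing covered 6 libraries of human embryonic stem cells (hESCs), namely 4 of naive cells, which resemble the pre-implantation epiblast, and 2 of primed cells, which resemble the later epiblast. Every library came from a line carrying EOS, a GFP reporter driven by the distal enhancer of POU5F1. The naive libraries were AICAR 1 and AICAR 2, from EOS cells treated with the AMPK activator AICAR, VPA, from EOS cells treated with the histone deacetylase inhibitor valproic acid, and CA-p38, from EOS cells that also carry constitutively active p38 under a doxycycline (DOX) inducible Tet-ON promoter and were treated with DOX. The primed libraries were the untreated EOS line and the untreated CA-p38 EOS line, 1 library each. The labels name the line H1, whereas the study's text names H9.

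Culture differed between the states in ways that bear directly on these genes. By the study's methods, naive cells were kept on mouse feeder cells in PXGL or FXGL and were collected as CD75+ SUSD2+ cells by flow sorting. PXGL is a medium with the MEK inhibitor PD0325901, the tankyrase inhibitor XAV939, the protein kinase C inhibitor Go6983 and LIF. FXGL has an FGF receptor inhibitor in place of PD0325901. The study also describes feeder-free PXGL culture of AICAR and CA-p38 naive cells, and does not say which these libraries came from. AICAR and DOX were given in PXGL. VPA was given in a medium with PD0325901 and LIF, and the medium in which those cells were then kept is not given separately. The libraries were not taken during induction: converted cells were first carried through several passages, after AICAR and DOX had been withdrawn. The study describes this expansion in PXGL for AICAR and CA-p38 cells. Primed cells grew without feeders in StemFit AK02N and were not sorted. Naive state, MEK inhibition (in FXGL, FGF receptor inhibition), medium, sort and, where used, feeders therefore changed together. Their parts in any difference below cannot be told apart. The CA-p38 line was itself enriched by sorting mCherry-positive cells. Nothing in the labels says that libraries were separate cultures beyond their names. The study lists the AICAR libraries at successive passage numbers after the same induction time. It does not say whether they came from separate conversions, so they may be successive passages of the same culture. Each still counts as a separate naive library in the main test and in the naive SDs. The p-values therefore measure the spread between the libraries, which may be technical in part.

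ERK is the last kinase of the cascade that runs from growth factor receptors through RAS, RAF and MEK. Once active, it enters the nucleus and raises the transcription of its own inhibitors. DUSP6 and DUSP4 encode phosphatases that remove phosphate from ERK, Sprouty proteins block the path from receptor to RAS and RAF, and SPRED proteins bring neurofibromin to the membrane, where it inactivates RAS. ETV1, ETV4 and ETV5 form the PEA3 group, ETS factors that are transcribed downstream of FGF and ERK signalling. The repressor CIC, which ERK signalling inactivates, is known to bind short octamers at several of these genes.

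Promoter sequences of the 3 genes with the largest decreases are shown because ERK output is read at the promoter. They run from 250 bases before to 50 bases after a RefSeq transcription start on GRCh38.p14, read on the strand of the gene, and capitals mark a match to a CIC octamer. DUSP6 lies at chr12:89352452-89352751 (minus strand), SPRY4 at chr5:142324198-142324497 (minus strand) and the ETV1 window, 1 of 6 for that gene, at chr7:13991376-13991675 (minus strand).
DUSP6: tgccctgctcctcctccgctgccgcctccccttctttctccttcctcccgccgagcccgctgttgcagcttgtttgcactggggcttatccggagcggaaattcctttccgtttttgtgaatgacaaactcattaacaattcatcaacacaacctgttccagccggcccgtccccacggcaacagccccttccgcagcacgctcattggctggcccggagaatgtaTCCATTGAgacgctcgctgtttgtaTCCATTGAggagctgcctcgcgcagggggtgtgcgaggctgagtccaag
SPRY4: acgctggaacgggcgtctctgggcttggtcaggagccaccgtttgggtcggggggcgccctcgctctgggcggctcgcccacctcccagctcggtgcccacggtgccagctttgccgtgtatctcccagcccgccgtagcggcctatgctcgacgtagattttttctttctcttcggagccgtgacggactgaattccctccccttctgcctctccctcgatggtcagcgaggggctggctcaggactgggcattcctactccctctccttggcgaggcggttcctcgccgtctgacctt
ETV1: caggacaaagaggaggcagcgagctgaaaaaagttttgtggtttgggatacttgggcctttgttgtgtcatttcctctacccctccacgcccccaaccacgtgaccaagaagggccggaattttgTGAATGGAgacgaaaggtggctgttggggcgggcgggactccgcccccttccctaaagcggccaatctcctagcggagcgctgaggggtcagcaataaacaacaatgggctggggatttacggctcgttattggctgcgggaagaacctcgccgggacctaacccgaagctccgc
The octamers searched on both strands were TGAATGAA, TGAATGGA, TCAATGAA and TCAATGGA. The DUSP6 promoter held TCCATTGA, the opposite strand of TCAATGGA, at 2 places, with first bases at -24 and 2 from the start. The ETV1 window held TGAATGGA with its first base at -125, and the other ETV1 windows, not printed here, held no octamer. The SPRY4 promoter held none of these letters. The table of promoters had entries for 7 of the 10 genes, with 16 windows, some of which overlap. Of these, 2 windows held an octamer, against 3.77% of 35116 promoters of the same length. The ETS core CCGGAAGT was in 0 of the 16 windows and in 4.14% of all promoters.

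The libraries held 46823699 to 54277064 counts in genes. A gene with 3 counts would have a level of 0.0553 to 0.0641 CPM, the count relative to the library total, and levels below are CPM after TMM scaling. The naive markers KLF17, DPPA3, DPPA5, TFCP2L1, KLF4 and SUSD2 were higher in naive cells in 6 of 6 cases, with a summed level of 1850 to 2150 CPM against 7.67 to 9.88 CPM. SUSD2, at 428 to 669 CPM in naive libraries, was also a marker of the sort, so its higher level was partly set by collection. The summed level of POU5F1, NANOG, SOX2 and LIN28A was 2200 to 2280 CPM in naive and 3070 to 3260 CPM in primed libraries. Of these, LIN28A and SOX2 were lower, NANOG was higher (1.33 on the log2 scale) and POU5F1 did not pass (-0.12). Of 8 fibroblast markers, 5 were lower in naive cells and 0 were higher, with sums of 32.3 to 75.3 CPM against 215 to 228 CPM, and the 3 that did not pass (DCN, COL3A1 and LUM) had higher means in naive libraries. COL3A1 was at 16.6 CPM in CA-p38, 3.57 to 7.05 CPM in the other naive libraries and 4.75 and 2.19 CPM in primed EOS and primed CA-p38. Within this list, PDGFRB and POSTN were at 0 to 0.181 CPM in naive libraries, DCN at 0.764 to 1.21 CPM and LUM at 0 to 1.17 CPM. PDGFRB was at 17.2 and 16.3 CPM in primed EOS and primed CA-p38, which grew without feeders. The feeders were mouse cells and the genes counted are human, so these levels do not measure feeder cells directly. Trophoblast markers summed to 16.1 to 17.8 CPM in naive and 3.86 to 4.97 CPM in primed libraries (2 of 4 higher, TFAP2A and KRT7). Neural markers summed to 1.67 to 3.19 CPM against 7.54 to 8.0 CPM (1 of 4 lower, MAP2), and endoderm and mesoderm markers to 9.03 to 13.1 CPM against 9.44 to 35.7 CPM (2 of 5 lower and 1 higher), with FOXA2 at 21.4 CPM in primed CA-p38. Their part in the results was not tested.

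All 10 ERK feedback and output genes fell in naive cells at an adjusted p under 0.05 (edgeR quasi-likelihood test, Benjamini-Hochberg over 26497 genes, 4 naive against 2 primed libraries). Over all genes tested, 27% were called lower and 26% higher. For all 10 genes, every naive library lay below both primed libraries, which held for 32.1% of all genes. The log2 fold change had a median of -5.10 over the 10 genes and 0.11 over all genes. A decrease of over 4-fold was seen in 8 of the 10 genes and in 9.02% of all genes, and one of over 32-fold in 5 of the 10 and in 1.82%. The decreases were far from equal, from -10.69 for DUSP6 to -1.30 for SPRED2. In bulk samples, less RNA per cell and fewer cells that express a gene cannot be told apart.

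**Figure D1:**
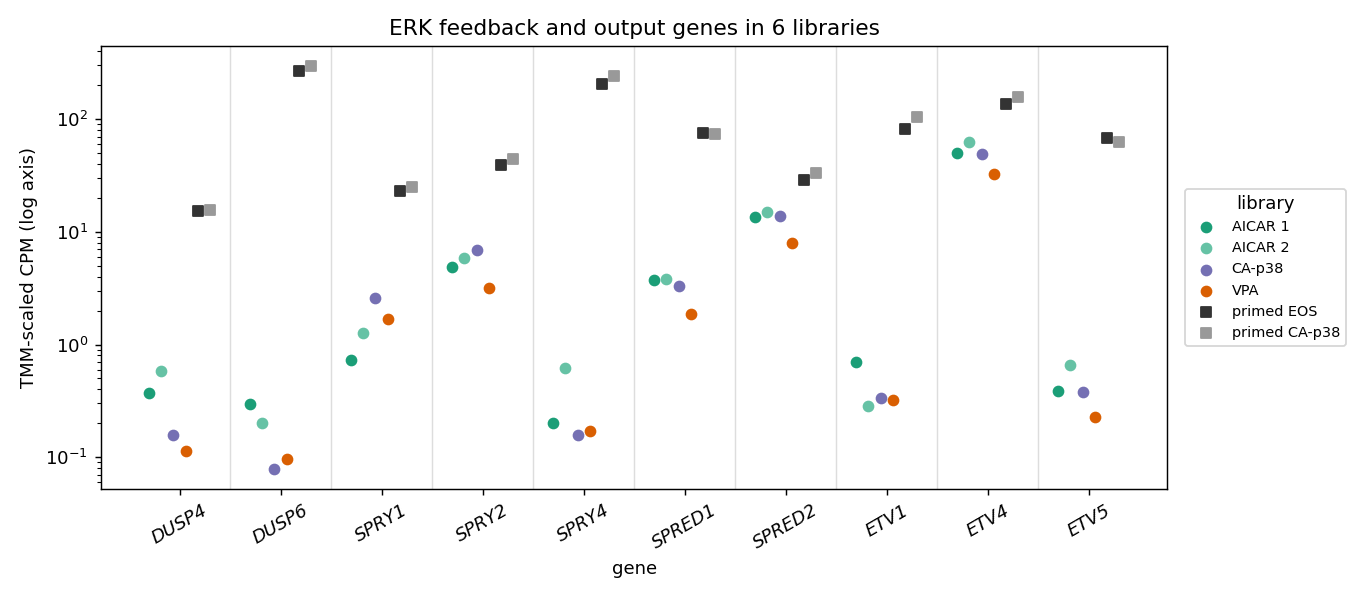
TMM-scaled CPM (log axis) of the 10 genes, with 1 point per library, circles for naive and squares for primed libraries. In every gene the 4 naive points lie below the 2 primed points, with the widest gap in DUSP6 and the narrowest in SPRED2.

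DUSP6, the cytoplasmic phosphatase that is specific for ERK, went from the highest level per exon length of the 10 genes in primed cells to near the detection floor in naive cells. The gene lies at chr12:89347235-89352501 (GRCh38, minus strand). Its level was 0.0955 CPM in VPA, 0.0792 in CA-p38, 0.295 in AICAR 1 and 0.201 in AICAR 2, and 268.5 for the primed EOS line and 295.9 for the primed CA-p38 line. These naive values rest on 5, 4, 16 and 10 counts, against 13288 and 14472 in the primed libraries. The lower primed value was 912 times the highest naive value. The log2 fold change was -10.69 ± 0.22 (SE), with an adjusted p of 9.23e-12 by edgeR, and ranked 11 from the lowest of 26497 genes. An antisense RNA, AC024909, shares 1105 exon bases with DUSP6 and had 1, 0, 1 and 0 counts in VPA, CA-p38, AICAR 1 and AICAR 2, against 2349 and 2180 in primed EOS and primed CA-p38. The study names a stranded library kit. Whether counting used the strand is not given in the sources used here, so reads over the shared bases may not have been separated between these genes. DUSP4, a nuclear phosphatase of ERK and other MAP kinases on chromosome 8, had a lower level per exon length in primed cells and also fell. It had 0.115, 0.158, 0.368 and 0.584 CPM in VPA, CA-p38, AICAR 1 and AICAR 2, against 15.3 and 15.7 in the primed libraries. Its log2 fold change was -5.66 ± 0.41 (SE, adjusted p 1.34e-07 by edgeR). Both AICAR libraries were above VPA and CA-p38 for DUSP4 and DUSP6, at 10 to 29 counts against 4 to 8.

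Of 8 other dual-specificity phosphatases of MAP kinases, 2 fell, 4 rose and 2 did not pass the test, with a median log2 fold change of 0.86. The share that fell was near the 27% of all genes called lower, and 26% of all genes were called higher. DUSP5, a nuclear phosphatase specific for ERK, was at 2.38 to 3.0 CPM in naive and 52.5 and 59.4 CPM in primed libraries, with a log2 fold change of -4.43 ± 0.15 (adjusted p 1.81e-10 by edgeR). DUSP2, another nuclear phosphatase, had counts in only 1 naive library (AICAR 2, 0.0805 CPM) and 2.203 and 2.94 CPM in primed libraries. DUSP9, a cytoplasmic phosphatase of ERK, went the other way, from 1.31 and 0.634 CPM in primed to 16.01 to 18.6 CPM in naive libraries (log2 fold change 4.13 ± 0.29, adjusted p 8.81e-08 by edgeR; 4.74 without primed EOS). DUSP8, DUSP10 and DUSP16, which act mainly on JNK and p38, rose by 3.19, 1.52 and 1.91 on the log2 scale, with DUSP10 at 2.10 without primed CA-p38. DUSP8 was lower in CA-p38 (5.52 CPM) than in the other naive libraries (10.9 to 11.7 CPM) and lay above both primed libraries (0.930 and 1.23 CPM). DUSP8 and DUSP16 are sums over several identifiers. DUSP7 (0.13 ± 0.15) and DUSP1 (0.21 ± 0.24) did not pass, and their groups overlapped. DUSP1, DUSP7, DUSP10 and DUSP16 were singled out after their values were seen.

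**Figure D2:**
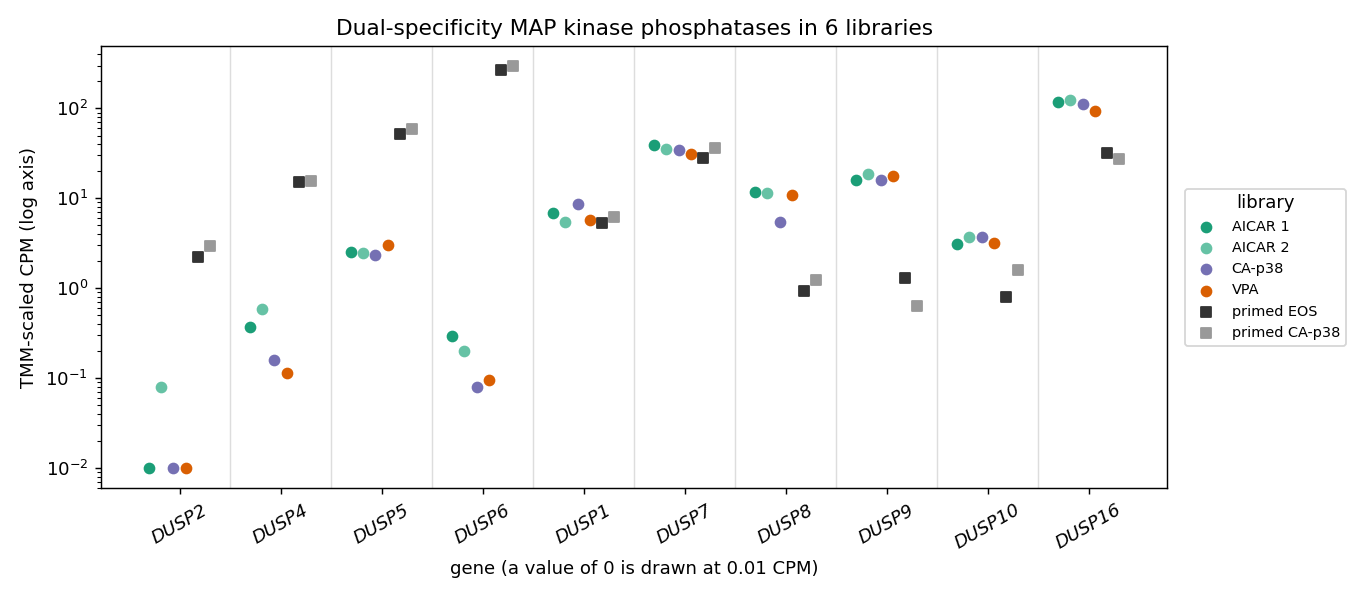
TMM-scaled CPM (log axis) of 10 dual-specificity MAP kinase phosphatases, with 1 point per library, circles for naive and squares for primed libraries. DUSP2, DUSP4, DUSP5 and DUSP6 are lower in naive libraries, DUSP1 and DUSP7 overlap, and DUSP8, DUSP9, DUSP10 and DUSP16 are higher.

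Among the Sprouty genes, SPRY4 (chr5:142310427-142326455, minus strand) carried most of the family's counts in primed cells and nearly none in naive cells. Its level was 0.172 CPM in VPA, 0.158 in CA-p38, 0.203 in AICAR 1 and 0.624 in AICAR 2, from 8 to 31 counts, and 203.1 and 239.4 CPM in primed EOS and primed CA-p38. The lower primed value was 325 times the highest naive value. The log2 fold change was -9.58 ± 0.28 (SE, adjusted p 5.25e-11 by edgeR), and -10.26 without AICAR 2, the naive library with the most SPRY4. SPRY1 (chr4:123396795-123403760, plus strand) showed another order among the naive libraries: CA-p38 was highest at 2.57 CPM, followed by VPA (1.68), AICAR 2 (1.27) and AICAR 1 (0.736), against 22.9 and 25.1 CPM in primed libraries. Its log2 fold change was -3.94 ± 0.33 (SE, adjusted p 5.5e-07 by edgeR). SPRY2 (chr13:80335976-80341126, minus strand), which like its relatives dampens receptor signalling, had the highest level per exon length of the 3 Sprouty genes in naive cells, with 3.15 CPM in VPA, 6.89 in CA-p38, 4.86 in AICAR 1 and 5.82 in AICAR 2, and 39.0 and 44.7 CPM in primed libraries. It fell by 3.02 ± 0.23 on the log2 scale (adjusted p 2.24e-07 by edgeR). SPRY3, the remaining relative, also fell (-3.84 ± 0.46), and the size depended on the primed libraries, at -2.67 without primed EOS and -4.47 without primed CA-p38.

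The SPRED genes fell by different amounts. SPRED1 (chr15:38252836-38357249, plus strand) had 1.85 CPM in VPA, 3.29 in CA-p38, 3.77 in AICAR 1 and 3.85 in AICAR 2, against 75.4 and 73.1 CPM in primed EOS and primed CA-p38, a log2 fold change of -4.54 ± 0.22 (SE, adjusted p 2.91e-09 by edgeR). SPRED2 (chr2:65310851-65432637, minus strand) changed least of the 10 genes, with 8.01 CPM in VPA, 13.7 in CA-p38, 13.6 in AICAR 1 and 15.1 in AICAR 2, against 28.7 and 33.5 CPM in primed libraries. Its log2 fold change was -1.30 ± 0.21 (SE, adjusted p 0.00019 by edgeR), and the lower primed value was 1.90 times the highest naive value. In both genes VPA was the lowest library, and the other naive libraries lay close together. SPRED3 fell as well, by 1.55 ± 0.31 on the log2 scale.

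The PEA3 factors split in their response. ETV1 (chr7:13891229-13991425, minus strand) was at 0.325 CPM in VPA, 0.337 in CA-p38, 0.699 in AICAR 1 and 0.282 in AICAR 2, against 81.6 and 103.5 CPM in primed EOS and primed CA-p38, a log2 fold change of -7.80 ± 0.25 (SE, adjusted p 8.44e-11 by edgeR). ETV5 (chr3:186046314-186110318, minus strand) was at 0.229, 0.376, 0.387 and 0.664 CPM in VPA, CA-p38, AICAR 1 and AICAR 2, against 68.4 and 62.5 CPM, a log2 fold change of -7.30 ± 0.24 (SE, adjusted p 1.41e-10 by edgeR). Both were thus reduced to at most 38 counts per naive library. ETV4 (chr17:43527844-43579620, minus strand), by contrast, had 32.5 CPM in VPA, 49.5 in CA-p38, 49.6 in AICAR 1 and 62.3 in AICAR 2, against 136.2 and 155.8 CPM in primed libraries. Its log2 fold change was -1.59 ± 0.19 (SE, adjusted p 1.03e-05 by edgeR), and the groups did not overlap. ETV4 shares 68 exon bases with DHX8 on the opposite strand, and ETV5 shares 164 with DGKG on the same strand, so a small part of their counts could belong to the neighbour.

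As a result of these unequal decreases, the make-up of each family differed between states. ETV4 made up 47.6% and 48.4% of the PEA3 counts in primed EOS and primed CA-p38, and 97.9% to 98.6% in naive libraries. SPRY4 went from 76.6% and 77.4% of the Sprouty counts to between 1.65% and 8.09%, while SPRY2 went from 14.7% and 14.5% to between 63.0% and 83.8%. SPRED2 held 27.6% and 31.4% of the SPRED1 and SPRED2 counts in primed and 78.3% to 81.2% in naive libraries. DUSP6 held 94.6% and 95% of the counts of the DUSP4 and DUSP6 pair in primed cells and 25.6% to 45.5% in naive cells, where the pair had only 11 to 39 counts. With so few counts the exact binomial 95% interval of the DUSP6 share was wide, 16.7% to 76.6% in VPA, and these intervals cover counting error only.

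The log2 ratio of counts between 2 relatives was compared for 8 pairs by a two-sided exact permutation test over the 15 ways to divide the libraries, in which 0.0667 is the smallest p possible. This p was reached by 6 pairs (exact permutation, Benjamini-Hochberg 0.0889). The SPRED1 to SPRED2 ratio was the steadiest of these within naive cells, with a mean of -2.0 ± 0.11 (SD, n = 4; primed 1.26 ± 0.19, n = 2), and the ETV4 to ETV5 ratio went from 1.16 ± 0.23 to 6.90 ± 0.25. The SPRY1 to SPRY2 ratio differed by -1.0 (exact permutation p 0.133) and the ETV1 to ETV5 ratio by -0.50 (exact permutation p 0.667). No pair passed 0.05, which this design could not give.

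**Figure D3:**
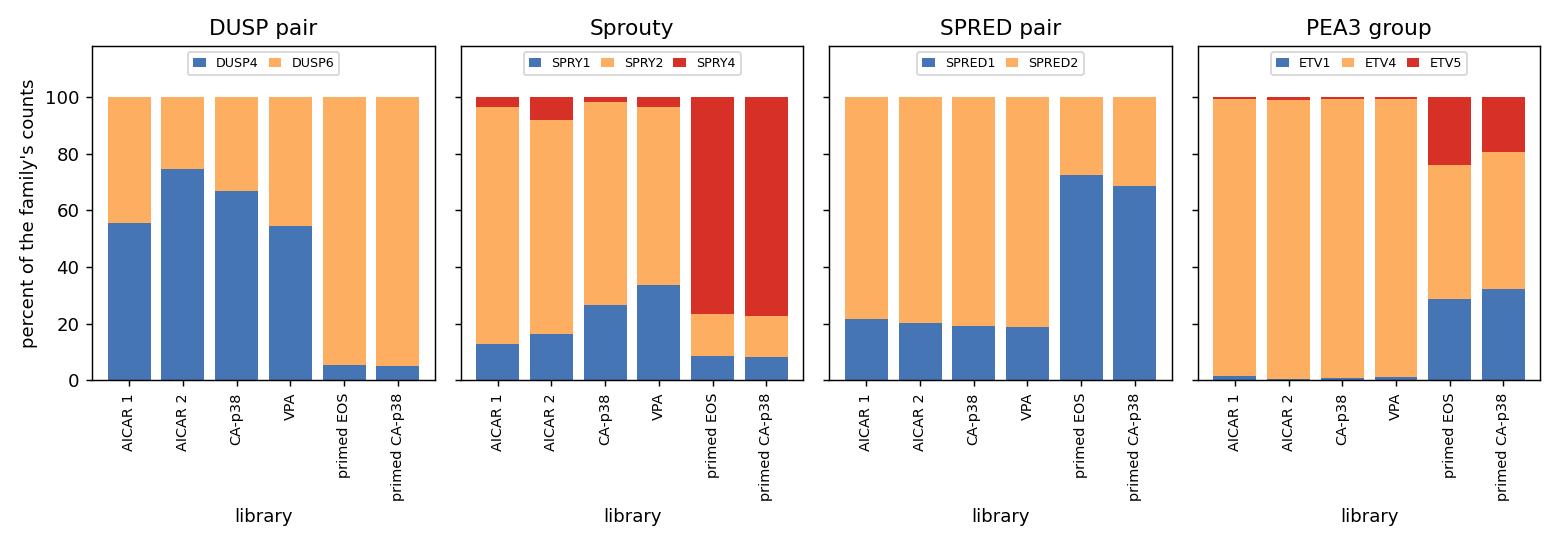
Share of each family's counts, in percent, taken by its members in each library, as stacked bars for the DUSP pair, Sprouty, the SPRED pair and the PEA3 group. The leading gene differs between the states in Sprouty and the SPRED pair. In the PEA3 group ETV4 leads in both and reaches 97.9% to 98.6% in naive libraries. In the DUSP pair DUSP4 has the larger share of naive counts, which are few. Per kilobase of exon, DUSP4 and DUSP6 were about level in naive libraries (means of 0.0421 and 0.0434 CPM per kilobase).

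Per kilobase of exon, the order of levels also changed between the states. In primed cells the order was DUSP6 (73.1 ± 5.02 CPM per kilobase, SD, n = 2), ETV4 (41.5 ± 3.92), SPRY4 (33.7 ± 3.92), SPRY2 (13 ± 1.27), ETV5 (11.3 ± 0.725), ETV1 (9.65 ± 1.61), SPRED1 (9.58 ± 0.208), SPRY1 (6.05 ± 0.391), SPRED2 (5.65 ± 0.619) and DUSP4 (2.13 ± 0.0415). Neighbours in this order differed by less than the sum of their SDs from SPRY2 to SPRED1, for SPRY1 and SPRED2, and narrowly for ETV4 and SPRY4. In naive cells ETV4 led with 13.8 ± 3.48 CPM per kilobase (SD, n = 4), followed by SPRED2 (2.29 ± 0.572), SPRY2 (1.61 ± 0.493), SPRED1 (0.412 ± 0.119) and SPRY1 (0.395 ± 0.196). The other 5 genes lay between 0.0421 and 0.0717 CPM per kilobase, and neighbours among them, as well as SPRED2 and SPRY2, and SPRED1 and SPRY1, differed by less than the sum of their SDs. The summed level of the 10 genes was 48.1 CPM in VPA, 77.1 in CA-p38, 74.6 in AICAR 1 and 90.7 in AICAR 2, against 939 and 1050 CPM in the primed libraries. ETV4 alone made up 64.2% to 68.7% of the naive sum and 14.5% and 14.8% of the primed sum.

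The inducers could be compared only as single libraries, apart from the AICAR pair, so differences among naive libraries have no test. VPA was the lowest naive library for 6 genes (DUSP4, SPRY2, SPRED1, SPRED2, ETV4 and ETV5) and the highest for 0. AICAR 2 was the highest for 6 genes. The highest naive value was 1.89 times the lowest for SPRED2 and 5.09 times for DUSP4, with the other genes between. Set against the own parental primed library, DUSP6 was lower by 2560 times in VPA (95% counting interval 1200 to 8660), 3320 times in CA-p38 (1460 to 13700), 884 times in AICAR 1 (561 to 1600) and 1270 times in AICAR 2 (725 to 2780). ETV4 was lower by 4.19, 3.14, 2.74 and 2.19 times in the same order, with counting intervals that do not overlap. This also held between AICAR 1 (2.62 to 2.87) and AICAR 2 (2.09 to 2.28), which share inducer and parental library. The intervals cover counting error only and leave out variation between libraries, so they do not test a difference between inducers. The primed lines differed little, with a CA-p38 to EOS ratio between 0.913 (ETV5) and 1.27 (ETV1).

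**Figure D4:**
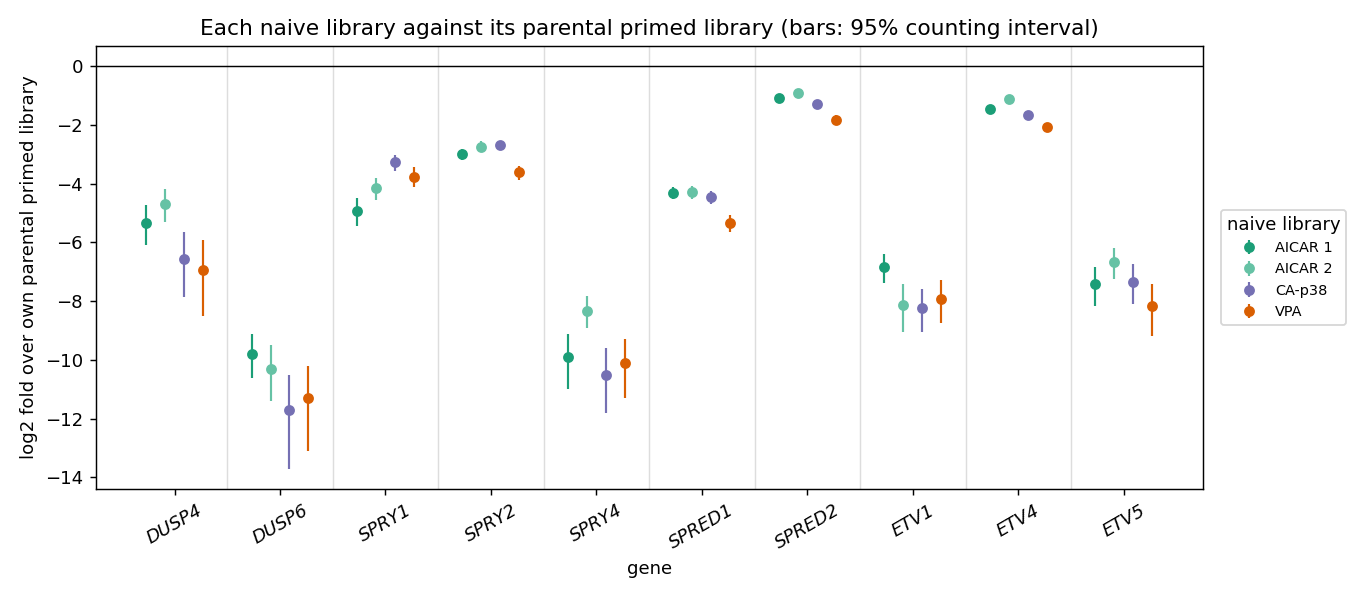
Log2 fold of each naive library over its own parental primed library for the 10 genes, with bars for the 95% counting interval. Every point lies below 0, and VPA is the lowest for DUSP4, SPRY2, SPRED1, SPRED2, ETV4 and ETV5.

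Whether the change differed between the CA-p38 line and the EOS line was tested by an interaction of line and state (edgeR). The CA-p38 naive library was induced by DOX and the EOS naive libraries by AICAR or VPA, so line and inducer cannot be told apart. Spread came from the EOS naive libraries only, since every other combination of line and state had 1 library. None of the 10 genes passed (adjusted p 1 for each), and 0 had an unadjusted p under 0.05, also with DESeq2 and limma-voom, while 0.00377% of all genes, 1 gene, were called. The differences ran from -1.44 ± 0.75 (DUSP6) to 0.94 ± 0.61 (SPRY1) on the log2 scale. On drawn counts, this test recovered 9.09% of 2-fold and 62.3% of 4-fold differences, so differences of that size may go unseen. These differences were drawn only in well-counted genes at a level shared by both states. Recovery at the few naive counts of DUSP4, DUSP6 and SPRY4 was therefore not measured.

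By median log2 fold change, the genes of the cascade itself lay nearer to 0 than the feedback and output genes. SHC1 and GAB1 were still farther from 0 than SPRED2 (-1.30) and ETV4 (-1.59). Of 20 genes from RAS to ERK, 9 fell, 6 rose and 5 did not pass, with a median log2 fold change of -0.16, beside 27% lower and 26% higher over all genes. The adaptor SHC1 (-1.78), the GTPase HRAS (-1.21) and the MEK kinase gene MAP2K1 (-0.89) fell, and the docking protein GAB1 rose by 1.64. MAPK3, an ERK gene, had 43.7 to 59.2 CPM in naive and 42.2 and 38.8 CPM in primed libraries and rose by 0.39 ± 0.14 (adjusted p 0.0312 by edgeR). MAPK3 lost this call in 6 of 15 alternatives, with adjusted p up to 0.166. MAPK3 was singled out after its values were seen. Over all 67 pathway genes listed, 34 fell and 16 rose.

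Other negative regulators fell or did not pass. Of 8 such genes, 5 fell and 0 rose, while over all genes tested 27% were called lower and 26% higher. IL17RD, a membrane inhibitor of FGF signalling, went from 127 and 195 CPM in primed EOS and primed CA-p38 to 12.2 to 14.8 CPM in naive libraries (-3.60 ± 0.16). ERRFI1 (-2.02), CBL (-1.95) and RASA2 (-1.84) also fell. All 4 further genes of a published score of ERK pathway activity fell, namely the receptor EPHA2 (-5.88), PHLDA1 (-3.65), the cyclin CCND1 (-3.24) and EPHA4 (-2.13). EPHA2 was at 0.534 to 0.792 CPM in naive and 30.6 and 46.3 CPM in primed libraries.

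Of 13 immediate early genes, 8 fell, 3 rose and 2 did not pass, with a median log2 fold change of -0.77. The share that rose was near the 26% of all genes called higher, and 27% of all genes were called lower. IER3 was at 4.06 to 5.30 CPM in naive and 80.0 and 76.0 CPM in primed libraries (-4.11 ± 0.14), EGR1 fell by 3.09 and MYC by 2.83 on the log2 scale, and EGR2 lay below 1 CPM in every library and lost its call without primed CA-p38 (adjusted p 0.352) and with the line as a block (adjusted p 0.0666). In contrast, FOS was at 27.6 to 39.6 CPM in naive and 5.46 and 7.26 CPM in primed libraries (2.40 ± 0.21, adjusted p 7.54e-07 by edgeR), with FOSB (2.17) and JUNB (1.89) higher as well. FOS, FOSB and JUNB were singled out after their values were seen. Among 9 ETS factors outside the PEA3 group, 4 fell (ETS2 -1.60, ETV6 -1.58, ELK3 -0.99 and ETS1 -0.70) and 2 rose. Of the CIC repressor complex, CIC (0.21 ± 0.12, adjusted p 0.169) and ATXN1L (-0.17 ± 0.12, adjusted p 0.239) did not pass, and ATXN1 rose by 1.74 ± 0.21 (adjusted p 1.22e-05 by edgeR).

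**Figure D5:**
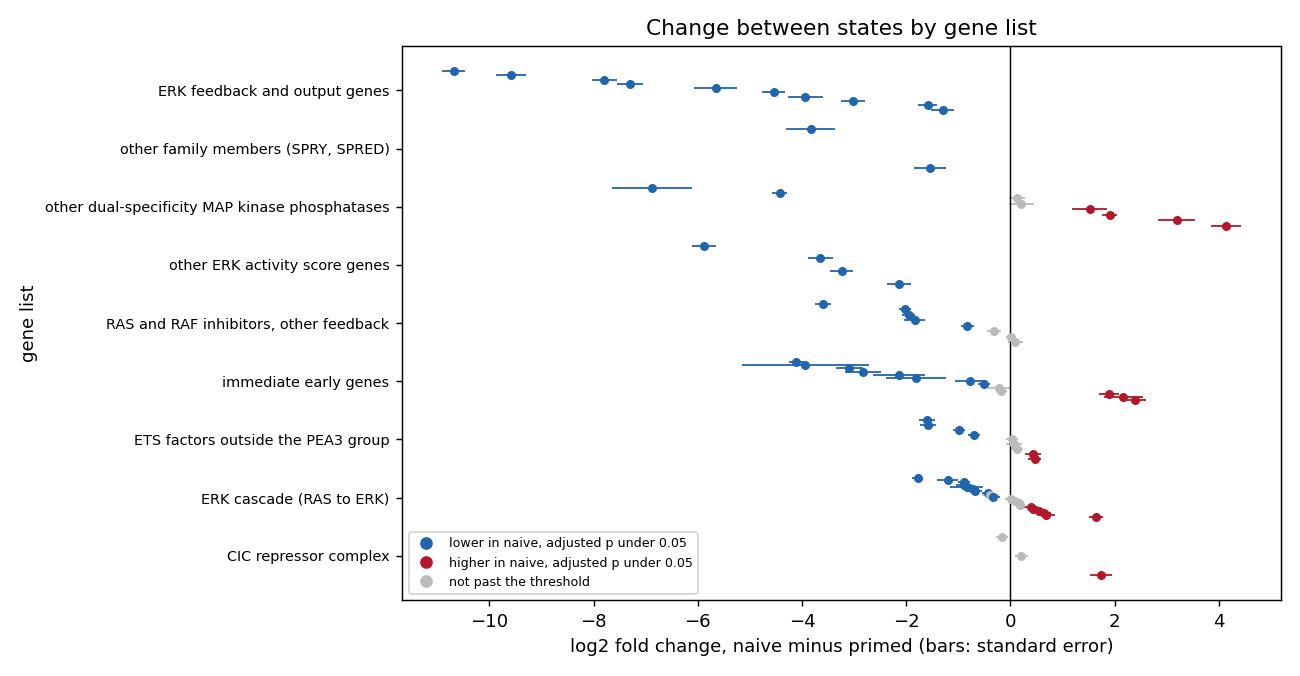
Log2 fold change, naive minus primed, of every gene in the ERK lists with its standard error, with lower genes in blue, higher in red and those not past the threshold in grey. The 10 feedback and output genes span -10.69 to -1.30, while the cascade genes lie between -1.78 and 1.64.

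The genes whose pattern over the 6 libraries was most like a given gene were named by the root mean square difference of centred log2 CPM. For DUSP6 these were SFRP2 (0.286), TNIK (0.600) and TCEAL7 (0.675), for ETV1 they were KLHL4 (0.356), CDH2 (0.413) and CHRDL1 (0.509), and for SPRY4 they were TCEAL2 (0.447), SIX6 (0.608) and ZDHHC22 (0.608). TCEAL7 had 0 CPM in every naive library and SIX6 at most 0.0201 CPM, so their distances depend on the prior count of 0.5. SPRED1 was closest to WNT5A (0.196), TRIB2 (0.199) and CAMK4 (0.204). ETV4 had the closest neighbours, AC060766 (0.077), PCDHA4 (0.091) and BAZ2B (0.099). BAZ2B, for example, had 13.5 CPM in VPA, 18.4 in CA-p38, 16.6 in AICAR 1 and 21.7 in AICAR 2, against 49.5 and 56.6 CPM in primed libraries. With 6 libraries in 2 states, the measure weighs mainly the step between states.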

How the data were processed

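Bulk RNA-seq of 6 libraries (4 naive, 2 primed) was analysed. The deposited values are raw counts per Ensembl gene identifier. Per the labels and the study's methods, the authors trimmed reads (Trim Galore 0.4.4, cutadapt 1.15), mapped them with Bowtie2 2.2.5 to Ensembl release 100 transcripts, and counted those with mapping quality 1 or more. Such a filter can drop reads that match near-identical transcripts equally well. The table has 61222 rows, of which 26 spike-ins (0 or 1 counts per library) were left out, and 23 columns of other studies were not used. Identifiers sharing a name were summed. The labels give the groups.

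Naive and primed libraries were tested against each other in edgeR 4.0.16, R 4.3.3 (TMM, filterByExpr, glmQLFit and glmQLFTest, no covariates), with Benjamini-Hochberg adjustment over 26497 genes and a threshold of 0.05. Alternatives used limma 3.58.1, DESeq2 1.42.0, other scalings, filters, the parental line, summed AICAR libraries, separate identifiers and each library left out. Ratios used a prior count of 0.5. On simulated data the edgeR test recovered 66.2% of 2-fold and 91.8% of 4-fold changes with 13 false calls among 25552 genes. Changes were placed in well-counted genes only and in a small share of all genes, whereas 27% were called lower and 26% higher in the data. Libraries were drawn as independent of each other. Recovery and false calls in the data may therefore differ. Positions are from GENCODE 44 and promoters from RefSeq. Python 3.11.15 with scipy 1.17.1 did the rest.

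Named genes were all 10 genes with their values, up to 4 genes of each pathway list by size of change, antisense transcripts, and for 5 genes the 3 most alike among those averaging 1 CPM or more. These genes and lists were chosen with earlier results of these data known. Results of some genes in these lists are not reported here.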

Additional observations from a re-analysis of the deposited data

Results flagged for a closer look

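In 2 of the 10 genes, 1 naive library stood apart from the other naive libraries: the gap to the nearest library divided by the range of the 4 was above the critical value of Dixon's test for 4 values. For SPRY4 the ratio was 0.905, with AICAR 2 at 0.624 CPM (31 counts) and the others at 0.158 to 0.203 CPM. For ETV1 it was 0.869, with AICAR 1 at 0.699 CPM (38 counts) and the others at 0.282 to 0.337 CPM. Chance flags about 1 in 20 such groups, and 10 were examined. Both genes stayed far below the primed libraries, at 203.1 and 81.6 CPM or more. The library that stands apart differed between the genes.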

How the results depend on the processing

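All 10 genes kept their direction and their call in every alternative in which they were tested, including the parental line as a block. The number called was 10 throughout, except that under at least 10 counts in every library DUSP4, DUSP6 and SPRY4 were not tested and 7 of 7 were called. The highest adjusted p was 0.00419, for SPRED2 (log2 fold change -1.42 to -1.15), and DUSP6 ran from -11.13 to -10.48. SPRY4 reached -10.26 without AICAR 2. Between 42 and 52 of the 67 pathway genes were called, and 34 of 39 followed singly kept direction and side. With each library left out, DUSP7 ran from -0.05 to 0.32 and MAP2K2 from 0.00 to 0.17, both lowest without primed EOS and neither past the threshold (MAP2K2 was singled out after its values were seen). The cause was not tested. Leaving out a primed library assumes that the lone one varies like the naive ones. The median of all genes moved from 0.11 to at most 0.20 (library totals). Numbers pair no libraries, since the labels share none between groups. With the parental line as a block, 46 pathway genes were called and, of those followed singly, EGR2 lost its call. Naive levels near 0.1 CPM rest on few counts.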
